A study of Mus musculus with 2 samples.

Results

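The Zfp503 locus is described here as a window of 70001 bp on chromosome 14 of the mouse genome build NCBIM37 (mm9), with covered positions from 22771420 to 22839164. It holds the gene Zfp503 and a cluster of CpGs hypermethylated in βerko cells at 22801734 to 22801868. In the window lay 265 of the 826937 cytosine positions that were covered in both libraries of the study, at 242 of its 1170 CpGs. The locus was chosen from these same data, because its cluster had more hypermethylated positions than any other, so that the difference between the cell types at the cluster is the reason for the choice and not a finding. The study compared DNA methylation in mouse embryonic fibroblasts (MEFs) from wildtype mice (wt) and from mice without oestrogen receptor beta (βerko, genotype ESR2 -/-) to find loci whose methylation differs when the receptor is absent. Both cell types had the strain label C57BL/6 and were grown in the same high-glucose DMEM with serum. Each cell type gave 1 library of reduced representation bisulfite sequencing (RRBS), made from DNA of 3 batches that were pooled before the library was prepared. There were thus no replicates, no test between the genotypes could be made, and every difference below is one between 2 libraries. Methylation alone does not show whether Esr2 was disrupted or whether the cells were fibroblasts.

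Zfp503, also known as Nolz1, encodes a zinc finger protein of the NET family, which represses transcription together with corepressors of the Groucho/TLE family. It is known for roles in the developing forebrain, hindbrain and limb. CpG islands, stretches rich in CpGs, are mostly unmethylated in normal cells, and genes of developmental regulators often lie in several of them. RRBS reads the ends of MspI fragments after bisulfite treatment, so that CpGs close to the MspI word CCGG are the ones measured.

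The reads of this window started at MspI sites, and each of the 265 positions lay within the first 36 bases from one. A position is 1 cytosine on 1 strand, and its methylation level is the percentage of reads in which it was still read as cytosine. A differentially methylated position (DMP) had more than 4 reads in both libraries, a level below 20 % in one and a level above 80 % in the other. It is hypermethylated where βerko was the higher one and hypomethylated where wt was. By this criterion 10 of the 265 positions were hypermethylated DMPs, against 0.237 % of all positions covered in both libraries, and 4 were hypomethylated DMPs, against 0.7 % of all. Since the locus was chosen for its DMPs, nothing can be read from these shares. The number of reads was known at DMPs, whereas the depth of the other positions was not used here and is unknown. The libraries were amplified by PCR and carry no molecular identifiers, so several reads may stem from 1 molecule, and the exact binomial (Clopper-Pearson) intervals at 95 % given here cover counting error only.

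Zfp503 is transcribed from the minus strand, from its start at 22808823 to its end at 22803184. In transcript Zfp503-001, exon 1 (22808247 to 22808823) is untranslated, exon 2 (22806426 to 22807506) holds the first coding bases, and exon 3 (22803184 to 22805738) holds the rest of the coding sequence and the 3′ UTR. The shorter transcript Zfp503-201 starts at 22807084, inside exon 2. The cluster is not in the gene, since it lies 1316 to 1450 bp beyond its 3′ end. The other annotated gene of the window is 1700112E06Rik, which starts at 22838934 on the plus strand, and the authors' annotation also placed the starts of the transcripts A330001L22Rik at 22808967 and C130012C08Rik at 22811658. A few stretches of the reference sequence (plus strand, NCBIM37) show the places on which the results turn, with the covered CpGs in capitals. The first is the cluster, the next is the piece of coding exon 3 in which the gain of methylation ended, the one after that is a CpG-rich piece of the same exon that stayed low in both cell types, and the last lies just upstream of the gene start and was partly methylated in both.
cluster, chr14:22801721-22801882: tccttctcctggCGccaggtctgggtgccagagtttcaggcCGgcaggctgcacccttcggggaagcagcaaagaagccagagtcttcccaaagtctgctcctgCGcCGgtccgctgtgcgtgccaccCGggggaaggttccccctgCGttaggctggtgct
end of the gain in exon 3, chr14:22805028-22805087: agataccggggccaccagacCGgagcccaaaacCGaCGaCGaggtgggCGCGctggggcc
low in both, exon 3, chr14:22805166-22805292: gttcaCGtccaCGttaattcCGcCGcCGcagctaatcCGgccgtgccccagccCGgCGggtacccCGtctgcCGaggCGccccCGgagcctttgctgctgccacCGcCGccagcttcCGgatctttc
upstream of the start, chr14:22808906-22808975: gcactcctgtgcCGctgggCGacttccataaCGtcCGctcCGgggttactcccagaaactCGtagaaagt

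In the cluster, 6 of the 9 CpGs from its first to its last DMP were covered, each on 1 strand, and all 6 were nearly unmethylated in wt and nearly fully methylated in βerko MEFs. The 6 positions averaged 1.41 % in wt MEFs and 97.5 % in βerko MEFs. Position 22801734 on the minus strand had 1 methylated read of 29 in wt (3.45 %, interval 0.1 to 17.8 %) and 16 of 16 in βerko MEFs (interval 79.4 to 100 %). Position 22801763, also on the minus strand, had 0 methylated reads of 29 (interval 0 to 11.9 %) and 16 of 16. These 2 positions were read from the same MspI end and are the thinnest part of the cluster, so that a level down to 79.4 % cannot be told apart from full methylation there. At 22801826 on the minus strand 2 of 90 reads were methylated in wt (2.22 %) and 49 of 49 in βerko MEFs (interval 92.7 to 100 %). At 22801829, read from the same end, it was 0 of 94 and 46 of 49 reads (93.9 %, interval 83.1 to 98.7 %). The remaining 2 positions, on the plus strand, were the deepest of the cluster. Position 22801849 had 2 of 108 methylated reads in wt (1.85 %) and 68 of 68 in βerko MEFs (interval 94.7 to 100 %). At 22801868 it was 1 of 107 (0.93 %) and 62 of 68 reads (91.2 %, interval 81.8 to 96.7 %). Summed over positions, where reads that span 2 of them count at each, 6 of 457 calls were methylated in wt and 257 of 266 in βerko MEFs. The intervals of wt and βerko MEFs did not overlap at any position of the cluster, which the criterion for DMPs favours. Because the 6 positions came from 3 read ends, they are not 6 separate measurements.

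Beside the cluster, 4 other positions of the window were hypermethylated DMPs, all between the cluster and the gene or just beyond the cluster. The nearest covered position on the side away from the gene, 22801553, had 1 of 30 methylated reads in wt (3.33 %) and 20 of 20 in βerko MEFs. The nearest one on the side of the gene, 22802249, had 0 of 62 reads and 18 of 21 reads (85.7 %, interval 63.7 to 97.0 %). On the other strand of that CpG, at 22802250, the level was 0 % in wt and 68.6 % in βerko MEFs, so that only 1 of its strands met the threshold. At 22802284 it was 0 of 62 and 20 of 21 reads (95.2 %). At 22802695, 489 bp beyond the gene end, it was 1 of 75 (1.33 %) and 66 of 72 reads (91.7 %). Of the 10 hypermethylated DMPs, 7 lay in CpG islands (windows of 200 bp with at least 50 % GC and an observed to expected CpG ratio of at least 0.6), as did 4 of the 6 in the cluster. This depends on the definition, since with windows of 500 bp and stricter limits 3 of the 10 and 0 of the 6 lay in an island. Among all 1960 hypermethylated DMPs 23.4 % lay in islands, and among all covered positions 69.3 %. The plot of the single DMPs sets their levels beside their read numbers.

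**Figure D1:**
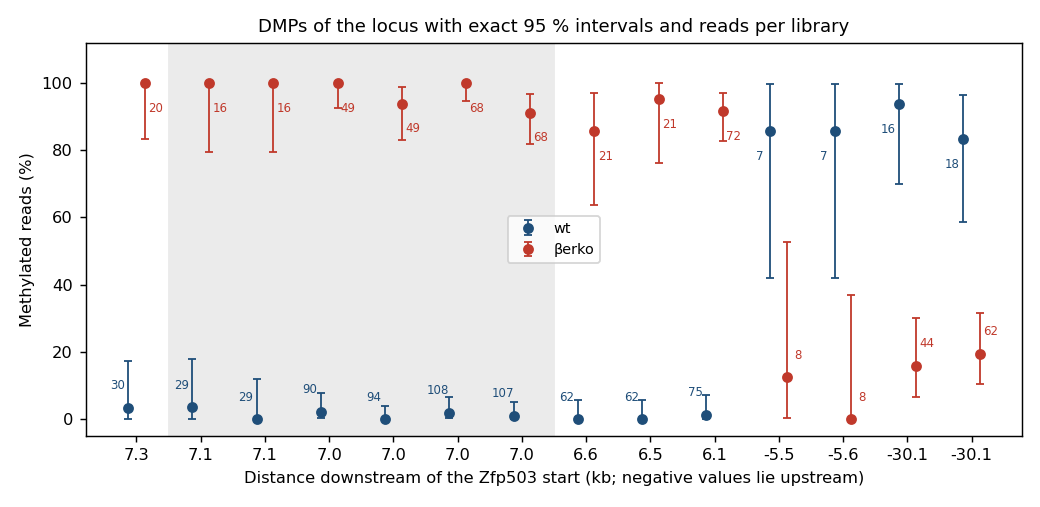
Methylated reads in percent (vertical axis) at the 14 DMPs of the locus in wt (blue) and βerko MEFs (red), ordered by position, with distance downstream of the Zfp503 start in kb below and the number of reads beside each point. Bars are exact 95 % binomial intervals, which cover counting error only, and the grey area marks the cluster; wt levels of the 10 hypermethylated DMPs lie at or below 3.45 % and βerko levels at or above 85.7 %.

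The gain of methylation was not limited to the DMPs. From 22800849 to 22805048, over 4200 bp, each of 60 consecutive covered positions was at least 20 percentage points higher in βerko than in wt MEFs, a difference found at 6.81 % of all covered positions. This definition of a run, with gaps of at most 2000 bp, was chosen after the values had been seen. The 60 positions came from 22 read ends, so many share reads and they are not 60 separate measurements. The run holds the cluster and all 10 hypermethylated DMPs, reaches 885 bp beyond the cluster on one side and 3180 bp on the other, and ends within the coding part of exon 3. In wt MEFs the 60 positions averaged 1.36 %, and 41 of them were at 0 %. In βerko MEFs their mean was 65.9 % and their quartiles were 53.9 and 73.7 %, with 52 positions above 50 % and 10 above 80 %. The 50 positions of the run that were not DMPs ranged from 22.7 to 77.4 % in βerko MEFs and did not exceed 10.0 % in wt. Just outside the threshold of 80 % were 22804283 with 77.4 %, 22800850 with 76.1 % and 22802729 with 76.0 %, and just inside were 22802249 with 85.7 %, 22801868 with 91.2 % and 22802695 with 91.7 %. The 10 positions above 80 % in βerko MEFs are the 10 hypermethylated DMPs, so the higher level of the cluster restates how DMPs were defined. The other 50 positions of the run were partly methylated in βerko MEFs. In the whole window, 78 of 265 positions were at least 20 points higher in βerko MEFs. At least 20 points lower were 25 of 265, which is no larger a share than the 10.4 % of all covered positions.

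Levels in βerko MEFs differed along the run. The 11 positions from 22800849 to 22800982, at its outer end, ranged from 22.7 to 76.1 %. Before them, from 22800794 to 22800838, 7 positions averaged 0.44 % in wt but 20.1 % in βerko MEFs, and 3 of these also differed by at least 20 points. Levels then rose to 100 % at 22801553 and to a mean of 97.5 % in the cluster. Between the cluster and the gene end, 12 positions averaged 1.74 % in wt but 74.1 % in βerko MEFs. The 3 positions from 22802249 to 22802284 had a βerko mean of 83.2 %, the 4 from 22802441 to 22802469 one of 63.1 %, and the 5 from 22802645 to 22802741 one of 77.4 %. No position was covered from 22802742 to 22804210, which takes in the whole 3′ UTR of 929 bp with its 25 CpGs, so that methylation across the gene end was not measured. Beyond this gap, 30 positions of exon 3 within the run averaged 0.24 % in wt but 61.1 % in βerko MEFs, with a range of 38.5 to 77.4 % in the latter. Of the CpGs of the run 3 were covered on both strands, and their strands differed by 12.8 to 24.4 points in βerko MEFs. This is the only repeated reading of a CpG in the run.

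**Figure D2:**
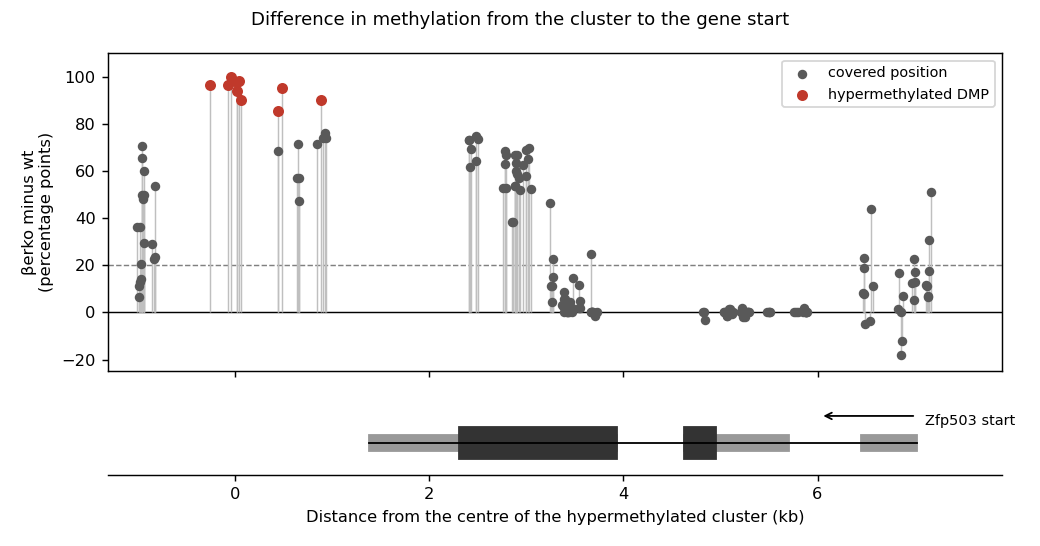
Difference in methylation, βerko minus wt, in percentage points (vertical axis) at the covered positions from 1 kb beyond the cluster to the gene start, against distance from the centre of the cluster in kb. Red points are hypermethylated DMPs and grey points other covered positions. The dashed line marks 20 points, and the gene model below has coding exons in black and untranslated parts in grey. The run of gained positions ends within exon 3, and differences stay near 0 over exon 2 and intron 1. Over exon 1 and around the gene start they vary again and reach 51.3 points.

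The gain ended inside exon 3. Position 22805048, the first base of a read, was methylated at 0 % in wt and 46.5 % in βerko MEFs. The next 5 positions of the same read end, from 22805061 to 22805078, had 0 % in wt and 11.4, 4.55, 11.4, 15.0 and 22.7 % in βerko MEFs. The rest of exon 3 beyond the run, 33 positions from there to 22805738, averaged 0.13 % in wt and 4.96 % in βerko MEFs. Only 22805078, with 22.7 %, and 22805469, with 25 %, were 20 points or more above wt among these. That the drop fell within 1 read rests on 22805048 alone, a first base at the MspI cut. Between covered stretches the βerko mean fell from 58.85 % (22804562 to 22804854) to 3.88 % (22805172 to 22805360). Some other first bases departed from their read end. In βerko MEFs 22800794 had 36.07 % against 11.29 and 14.75 % farther in. Others did not, as 22804211 and 22804215 with 73.08 % each. Whether this has a part in the edge was not tested. The edge did not coincide with the edge of the CpG island over exon 3 (22804073 to 22805890), within which both the gained and the low positions lie. As a whole, the 63 positions of that island averaged 0.18 % in wt and 31.7 % in βerko MEFs, but this mean joins 2 stretches with different levels. CpGs were denser beyond the edge, with 10.1 CpGs per 100 bp from 22805049 to 22805738, than in the coding part of exon 3 within the run, with 7.37 per 100 bp. Whether CpG density has a part in where the gain ended was not tested.

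Over exon 2 and intron 1 both cell types were unmethylated. The 34 positions of exon 2 averaged 0.36 % in wt and 0.17 % in βerko MEFs, and intron 1 had 0 and 0.17 % at 11 positions. The island over exon 2 (22806422 to 22807905) had 45 covered positions with means of 0.27 and 0.17 % and no level above 3.23 % in either cell type. The start of the shorter transcript Zfp503-201 lies in it, and from 500 bp upstream to 100 bp downstream of that start 17 positions had means of 0.32 and 0.19 %. None of these 17 positions was above 1.92 % in either library.

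At the annotated start of Zfp503-001, intermediate levels were found in both cell types. The 19 positions of exon 1 averaged 23.6 % in wt and 32.7 % in βerko MEFs. The 22 positions of the promoter, from 500 bp upstream to 100 bp downstream, averaged 42.1 % in wt and 58.8 % in βerko MEFs, and 8 of them were at least 20 points higher in βerko MEFs while 14 differed by less. Of these 8, 5 lay in the outermost 10 positions, at 22809168 to 22809202, and the other 12 positions averaged 27.5 % in wt and 44.7 % in βerko MEFs with 3 such gains. The island around the start (22808129 to 22809368) had means of 35.1 and 48.0 % at 36 positions. No position of the island or the promoter was a DMP. In the sequence printed above, directly upstream of the start, 7 positions on 6 CpGs ranged from 10.7 to 46.4 % in wt and from 17.6 to 78.6 % in βerko MEFs, and each was higher in βerko MEFs, by 6.51 to 51.3 points. The last of them, 22808966, lies beside the annotated start of A330001L22Rik and had 27.3 % in wt and 78.6 % in βerko MEFs. The 10 positions from 22809168 to 22809202, farther upstream, ranged from 0 to 100 % in both cell types, and the strands of single CpGs differed by up to 100 points in βerko MEFs, so that little can be read from these levels.

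**Figure D3:**
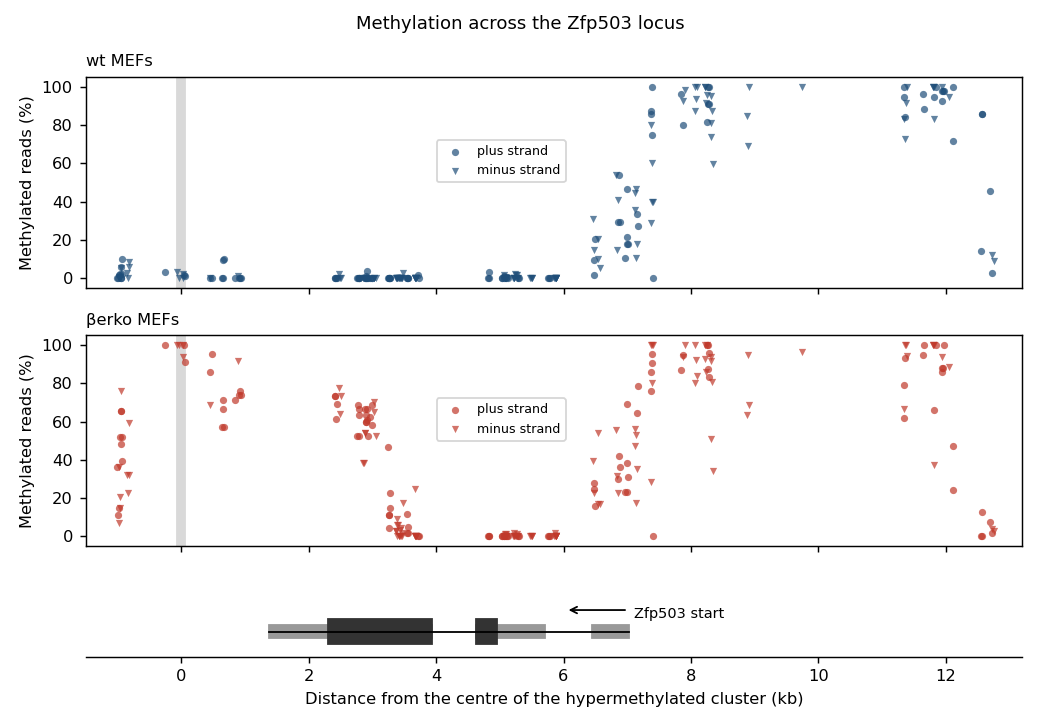
Methylated reads in percent (vertical axes) at 237 of the 265 covered positions of the locus in wt (top) and βerko MEFs (middle), against distance from the centre of the hypermethylated cluster (grey bar) in kb, with the Zfp503-001 gene model and its direction of transcription below. In wt MEFs levels are near 0 from the cluster to intron 1, intermediate around the gene start, mostly high farther upstream and lower again at the right end, and in βerko MEFs the cluster side is methylated as far as the middle of exon 3 while exon 2 stays near 0.

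Upstream of the promoter, DNA was methylated in both cell types. From 22809650 to 22813764, 46 positions averaged 91.8 % in wt and 87.0 % in βerko MEFs. Beyond them methylation was lower in βerko MEFs: from 22813847 to 22814556, 10 positions had means of 52.1 and 18.9 %. There, 22814363 had 6 methylated reads of 7 in wt and 1 of 8 in βerko MEFs, and 22814374 had 6 of 7 and 0 of 8. Both are hypomethylated DMPs within C130012C08Rik in the authors' annotation, and at this depth their intervals overlapped at the first (42.1 to 99.6 % against 0.3 to 52.7 %). Around the start of 1700112E06Rik, 30 kb upstream of Zfp503, 17 positions had means of 69.7 and 38.2 %. The hypomethylated DMPs there were 22838924, with 15 of 16 methylated reads in wt (93.8 %) and 7 of 44 in βerko MEFs (15.9 %), and 22838973, with 15 of 18 (83.3 %) and 12 of 62 reads (19.4 %). These 4 were all the hypomethylated DMPs of the window. On the far side of the cluster, the 8 covered positions up to 22800000 had means of 80.4 and 74.5 %. Of the 25 positions at least 20 points lower in βerko MEFs, all but 1 lay upstream of the promoter, and none lay between the outer end of the run and the promoter.

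Compared with the other hypermethylated clusters (at least 3 hypermethylated DMPs with gaps of at most 100 bp, 27 in all with 96 DMPs), the one at Zfp503 ranked first by number of DMPs, first by mean difference with 96.1 points, and first by the median reads of its DMPs in wt, level with one at Lhx2. The first of these ranks is how it was chosen, and all come from the contrast used for the choice. It ranked 17 of 27 by CpG density within 150 bp of its centre, with 3.99 CpGs per 100 bp against a median of 4.32, so it was not among the CpG-rich ones. Outside the cluster, 31 covered positions within 1 kb averaged 2.22 % in wt but 54.0 % in βerko MEFs. This difference of 51.8 points ranked 4 of 27, and the median of the 27 clusters was 25.4 points. The 31 positions include the 4 other hypermethylated DMPs, and without DMPs 27 positions averaged 2.37 and 48.2 %, a difference of 45.8 points against a median of 23.9 points. The clusters most like it in both means were one in Hoxa11, with 0 % in wt and 95.6 % in βerko MEFs, an intergenic one on chromosome 4, with 0 and 95.4 %, and one in Hoxa10, with 0 and 92.7 %. The nearest gene of the intergenic one, SNORA17, lies 57327 bp away. All had 3 DMPs and differences of 29.6, 21.4 and 38.4 points in their surroundings. Their median reads in wt were 6, 25 and 6, against 92 at Zfp503. The wt level of 0 % in Hoxa11 and Hoxa10 thus rests on few reads. The other clusters of at least 5 DMPs, in AI464131, Pitx1 and at Gm2301, had 5 each. The run of gain around the Zfp503 cluster was the longest of 44043 such runs, with 60 positions, ahead of one over Hoxa9 and Hoxa10 with 29 positions and one at Tbx4 with 22. Its length rests on counting across the uncovered gap of 1469 bp at the gene end, and with gaps of at most 1000 bp it was 2 runs of 30 positions. The median run of gain had 1 position, and 21 runs had at least 10. A further run at Hoxa9, from 52179249 to 52179921, had 20 positions. It ended shortly before the run over Hoxa9 and Hoxa10, which starts at 52180686. Runs of loss reached 77 positions, at Hoxd9. Over the gene body, the mean difference of Zfp503 was 16.9 points at 127 positions, which ranked 24 of 9309 genes with at least 20 covered positions, whose median was -0.51 points.

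**Figure D4:**
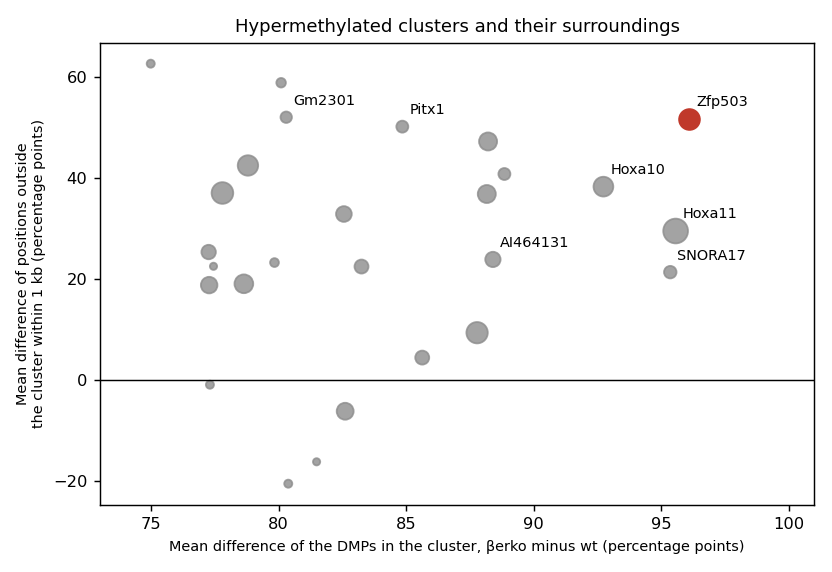
Mean difference of the DMPs in each of the 27 hypermethylated clusters (horizontal axis, βerko minus wt in percentage points) and mean difference of the covered positions outside the cluster within 1 kb (vertical axis, same unit; other DMPs included), with point area growing with the number of such positions. The cluster at Zfp503 (red) lies farthest to the right, at 96.1 points, with a difference of 51.8 points in its surroundings; the labelled grey points are the clusters named in the text.

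The sequence around the cluster was searched for short words on both strands, within 150 bp of its centre. The oestrogen response element was searched as its full palindrome with 3 or with 2 spacer bases, the site of AP2 as GCCNNNGGC, the E-box as CAGCTG and the GC box as GGGCGG, and each was found 0 times. In windows of the same length around all covered CpGs, these words were present in 0.031, 0.054, 29.3, 17.2 and 44.2 %. The MspI word CCGG was found 4 times, and 99.9 % of the windows had it, as the method requires. For AP2 only the form with 3 spacer bases was counted. The printed cluster sequence holds GCC and GGC with a longer spacer, as GCCGGCAGGC. The count of 0 therefore does not exclude an AP2 site with another spacing. The words are short and the absence of a word says only that these letters are not in this window.

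Zfp703, the other member of the NET family, and genes of the Groucho/TLE family were given as the gene list for comparison. The Zfp703 promoter was unmethylated in both cell types, with means of 0.16 and 0 % at 11 positions. So were those of the Groucho/TLE family genes Tle4, with 0.38 and 0.15 % at 9 positions, and Aes, with 0.18 and 0.15 % at 21 positions. The promoter of Tle6 had 37.1 and 35.5 % at 3 positions, and those of Tle1, Tle2 and Tle3 had no covered position in this window. From 1000 bp upstream to 500 bp downstream, Tle1 had 0.12 and 1.8 % at 26 positions. Of these, 2 were at least 20 points higher in βerko MEFs. In the same wider window Tle3 had 6.42 and 2.53 % at 13 positions, and Tle2 was still not covered. Of the 411 covered gene body positions of these 7 genes, 0 were hypermethylated DMPs and 1, in Tle6, was a hypomethylated DMP, against 0.237 and 0.7 % of all covered positions. With so few positions these counts are near the background and show nothing particular to the genes. Over gene bodies, the difference between the cell types farthest from 0 was -6.56 points, βerko minus wt, in Tle6, against 16.9 points in Zfp503.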

How the data were processed

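Genomic DNA of wt and βerko MEFs, 3 batches pooled in each of 2 libraries, was analysed by RRBS. The authors mapped reads with the Genomatix Mining Station (version not given in the sources used here) and deposited, for every cytosine that both libraries covered, its methylation in percent without depth. For DMPs they deposited read counts per library and a RegionMiner annotation. The submitters' processing notes name mm9 and CASAVA 1.4. Depth at the 14 DMPs was 7 to 108 reads in wt and 8 to 72 reads in βerko MEFs.

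Of 826937 positions, 826925 were compared with NCBIM37, and 826925 of them were CpG cytosines; the other 12 are mitochondrial. Gene models were from GENCODE on NCBIM37. Methylated read counts were taken as percent times reads. Clusters, runs, islands and word counts were computed with NumPy 2.4.6, SciPy 1.17.1 and pandas 2.3.3 under Python 3.11.15, and figures were drawn with matplotlib 3.10.9. Cluster finding was run on simulated data, with a smaller gap limit than the 100 bp used here, and recovered 50 of 50 clusters. The simulated clusters stood clear of their background by design, so this checked the code and not the calls in these data.

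The locus, the gene list and the definitions were chosen with earlier results of these data known. With 1 library per genotype no test was made. Named were Zfp503, other genes of the window, the NET and Groucho genes, the genes nearest to the 3 clusters most like that at Zfp503 in both means, and those at other clusters of at least 5 DMPs. The genes at the longest runs (Hoxa9, Tbx4, Hoxd9), Lhx2 and the transcripts A330001L22Rik and C130012C08Rik were named after their values had been seen. Alternatives concerned coverage, thresholds, strands, gaps, islands, promoters and word windows.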

Additional observations from a re-analysis of the deposited data

How the results depend on the processing

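No paired analysis was possible because each genotype had 1 library and no test was made. Of the alternative settings, 59 values stayed close to those reported and 16 moved. Nearly all values were levels or counts, which cannot change sign, so a reversal could not be seen in them. Some values could hardly move. Means near 0 in wt MEFs cannot fall by 5 points, and some settings selected the same positions, as 500 bp windows did for the island over exon 3. Means without reads counted as moved beyond 5 percentage points. For counts the limit was relative and wide. The number of clusters, 19 with at least 10 reads against 27, still counted as close. So did the run with 49 positions at a gain of at least 30 points, against 60. As a median over positions, the island over exon 3 had 22.73 % in βerko MEFs, and the island at the start had 38.82 % in βerko and 29.36 % in wt MEFs. Of the 4 hypomethylated DMPs, 2 were left with at least 10 reads, 0 with at least 20 reads and 0 with thresholds of 10 and 90 %. With gaps of at most 500 bp the cluster had 10 DMPs. With gaps of at most 50 bp it had 4 DMPs and ranked 4 by number of DMPs. Within 250 bp, 1 of the 5 words was found, that of AP2. The following settings were chosen after seeing the data. Without its outermost 10 positions the promoter had 27.5 % in wt and 44.72 % in βerko MEFs. With islands of 500 bp windows, 3 hypermethylated DMPs of the locus and 0 of the cluster lay in islands, and without other DMPs the surroundings of the cluster differed by 45.81 points. For the run, with a gain of at least 40 points it had 31 positions, and with gaps of at most 1000 bp it was split at the uncovered gene end into stretches of 30 positions each. It was the longest under every setting tried, in that last case together with its other part. Depth was 7 and 8 reads at 2 of the hypomethylated DMPs.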
